A study of Arabidopsis thaliana with 44 samples.

Results

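The response of *Arabidopsis* to sulphur limitation is known from a set of genes, of which 10 were described in dry seed. They were *LSU1* (AT3G49580), *LSU2* (AT5G24660), *LSU3* (AT3G49570), *LSU4* (AT5G24655), *BGLU28* (AT2G44460), *BGLU30* (AT3G60140), *SDI1* (AT5G48850), *SDI2* (AT1G04770), *GGCT2;1* (AT5G26220) and *SHM7* (AT1G36370). They were chosen by locus, with the opposite signs of their responses to low nitrate and to low light already seen, and all 10 were found among the 27827 probe sets of the array. Freshly harvested seed came from 3 near isogenic lines, NIL DOG6, NIL DOG3 and NIL DOG1, each named for a locus that affects seed dormancy. The mother plants grew at 15C or under low nitrate (N0), both with 20C as their control, or under low light (LL), with standard light (SL) as its control. There were 15 groups of 3 arrays, except that NIL DOG3 under N0 had only 2, and each replicate was a bulk of 4 plants. No line without one of the named loci was among the samples used here, so the lines could be compared only with each other. Total RNA is named on the labels, although RNA from polysomes also appears in the protocol for extraction.

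Plants take up sulphur as sulphate, activate it, reduce it through APS reductase to sulphide and build it into cysteine, from which glutathione and methionine are made. When sulphate is short, plants raise sulphate uptake and draw on stores such as the glucosinolates, and the transcription factor SLIM1 is a known regulator of this response. The LSU genes encode small coiled-coil proteins and were named for their response to low sulphur. BGLU28 and BGLU30 are beta-glucosidases linked to the breakdown of glucosinolates, and BGLU30 is also known as the dark-inducible gene DIN2. SDI1 and SDI2 act as repressors of glucosinolate synthesis. GGCT2;1 is a gamma-glutamyl cyclotransferase that breaks down glutathione, and SHM7, also called MSA1, belongs to the serine hydroxymethyltransferase family. Several of these genes follow the cysteine precursor O-acetylserine in leaves and roots.

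Values are log2 values made by the authors with RMA, a method that corrects the background, gives all arrays nearly the same distribution and summarises the probes of a gene. Levels of different genes cannot be compared on this scale, since each has its own probes. The median over all values was 4.28, and values below it depend on the background correction. All 8 markers of seed storage proteins and oil bodies lay above the array median in every condition, with means of 11.2 to 12.0. Of 14 pollen markers, 4 were called lower at 15C, 1 under N0 and 9 under LL, each against its control. Among all probe sets 12.8%, 6.07% and 3.63% were called lower in these comparisons, at an adjusted p under 0.05 in limma. The mean of these markers was also followed by array. Their mean lay between 4.59 and 5.19 on LL arrays and between 5.19 and 6.96 on SL arrays, with the 3 SL arrays numbered 2 among the highest at 6.38, 6.96 and 6.96. On LL arrays 9 and on SL arrays 11 of the 14 lay above the array median. Their mean lay between 4.88 and 5.49 at 15C and between 5.16 and 6.25 under N0, against 5.12 to 6.00 at 20C. In seed as a bulk tissue, fewer cells of a type and less RNA per cell cannot be told apart. Errors after ± are standard errors (SE) of one limma fit to all 44 arrays, unless named as SD.

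*LSU1* had the widest range of the 10 genes. In NIL DOG6 it was at 8.13, 7.45 and 7.66 at 15C and at 7.12, 7.70 and 7.16 under N0, against 6.35, 6.11 and 5.78 at 20C. In NIL DOG3 it was at 7.50, 8.23 and 8.04 at 15C and at 7.74 and 7.27 under N0, against 5.15, 6.09 and 5.22 at 20C. In NIL DOG1 it was at 8.02, 7.95 and 7.71 at 15C and at 7.24, 7.15 and 6.76 under N0, against 4.82, 5.17 and 5.39 at 20C. Every array of 15C and of N0 thus lay above every 20C array of its own line. Light gave the opposite picture. *LSU1* was at 2.96, 4.04 and 3.93 under LL in NIL DOG6, against 5.90, 5.33 and 5.23 under SL. In NIL DOG3 it was at 2.11, 3.43 and 2.70 under LL, against 5.19, 5.21 and 3.68 under SL. In NIL DOG1 it was at 2.91, 2.21 and 3.59 under LL, against 4.42, 4.70 and 4.25 under SL. No LL array reached an SL array of its line, and all 9 LL values lay below the median of the array, so the size of this difference depends on the background.

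**Figure D1:**
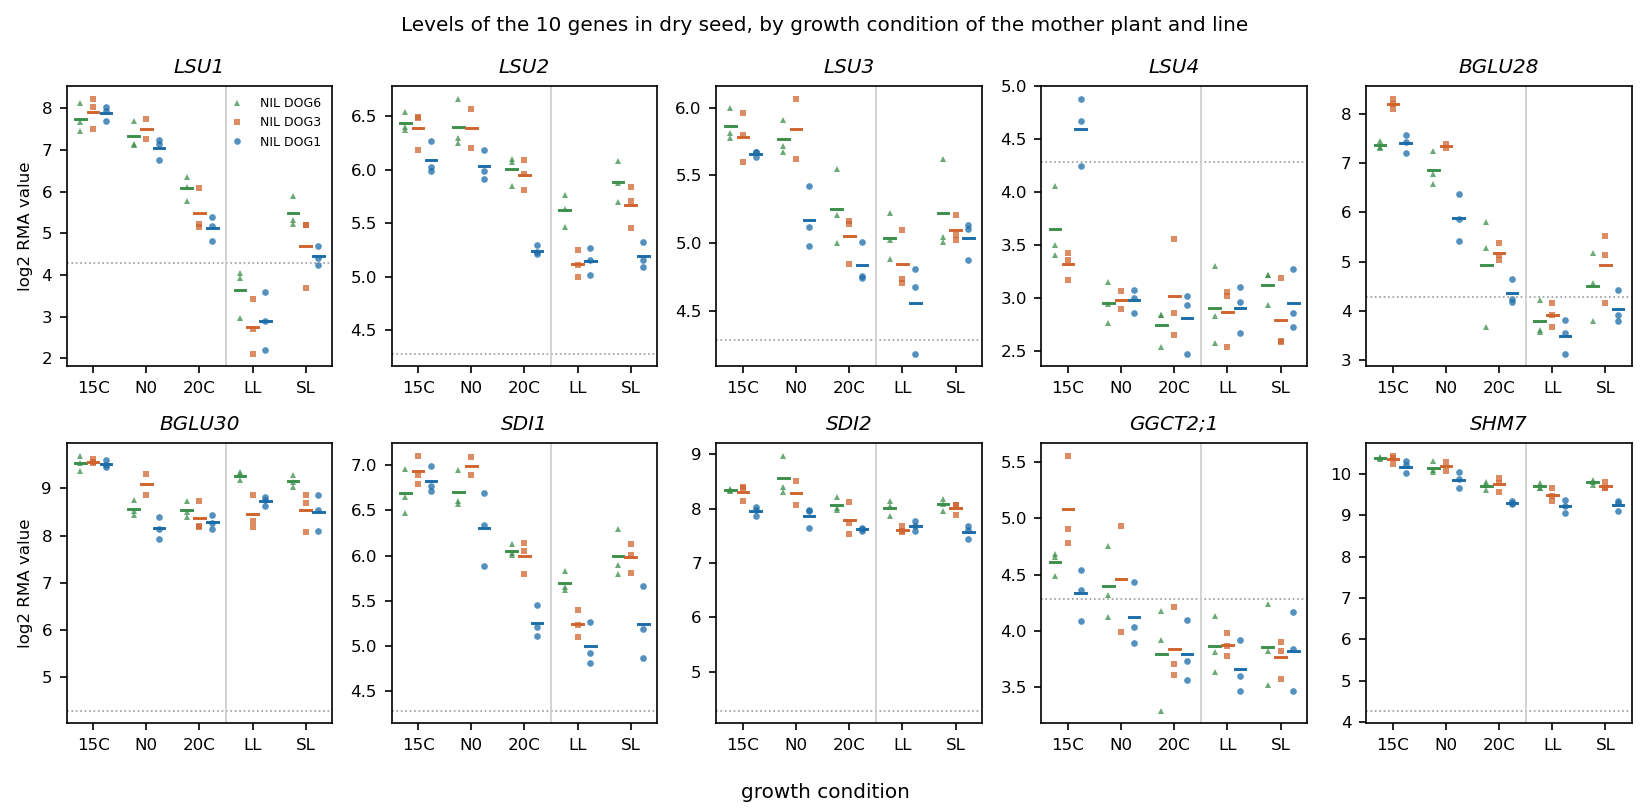
Log2 RMA values (y axis) of the 10 genes by growth condition (x axis), with 1 symbol per array, short bars at the mean of each group and a dotted line at 4.28, the median over all values. N0 is low nitrate, LL low light and SL standard light, and the grey line parts the temperature and nitrate conditions from the light conditions. *LSU1* runs from 7.45 to 8.23 at 15C down to 2.11 to 4.04 under LL, while *LSU4* stands high at 15C in NIL DOG1.

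The order of the *LSU1* group means was 15C, N0, 20C, SL and LL from high to low in each of the 3 lines. Neighbours in this order did not overlap in NIL DOG1. In NIL DOG3 and NIL DOG6 the arrays of 15C and N0 overlapped, as did those of 20C and SL. As means of the 3 within-line differences, *LSU1* was 4.90-fold higher at 15C than at 20C (log2 difference 2.29 ± 0.21) and 3.32-fold higher under N0 (1.73 ± 0.22). It was 3.44-fold lower under LL than under SL (-1.78 ± 0.21). Since these responses were known when the genes were chosen, and since 15C and N0 share the 20C arrays, the condition differences of the 10 genes are given as a description, and no p-value of theirs is given.

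*LSU2* followed the same order with smaller differences. *LSU2* ranged from 5.98 to 6.53 with a median of 6.37 at 15C and from 5.91 to 6.66 with a median of 6.22 under N0, against 5.21 to 6.10 with a median of 5.85 at 20C. Across lines these ranges overlapped, but within each line every 15C and every N0 array lay above the 20C arrays. Under LL *LSU2* ranged from 4.99 to 5.76 with a median of 5.24, against 5.09 to 6.08 with a median of 5.70 under SL. Its log2 differences were 0.57 ± 0.07 for 15C, 0.54 ± 0.08 for N0 and -0.29 ± 0.07 for LL. *LSU3*, the neighbour of *LSU1* on chromosome 3, differed by 0.72 ± 0.10 at 15C, 0.55 ± 0.10 under N0 and -0.30 ± 0.10 under LL. Its group means ran in the *LSU1* order in NIL DOG6, while SL stood above 20C in NIL DOG3 and NIL DOG1, and N0 above 15C in NIL DOG3. All LL arrays of *LSU3* lay below its SL arrays in NIL DOG1 alone among the lines.

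*LSU4*, the neighbour of *LSU2* on chromosome 5, was dim and moved mainly at 15C. It stood at 3.50, 4.06 and 3.40 at 15C in NIL DOG6, against 2.84, 2.84 and 2.54 at 20C. In NIL DOG3 it was at 3.17, 3.43 and 3.36 at 15C, against 3.55, 2.85 and 2.65 at 20C. In NIL DOG1 it was at 4.88, 4.67 and 4.25 at 15C, against 2.47, 2.93 and 3.02 at 20C. The groups overlapped in NIL DOG3 and stood apart in the other two lines, and most values lay below the array median. The mean log2 difference was 1.00 ± 0.13 for 15C, while those for N0 (0.11 ± 0.13) and LL (-0.06 ± 0.13) were smaller than their errors.

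*BGLU28* had the largest 15C difference of the 10 genes, 7.10-fold (2.83 ± 0.21). It ranged from 7.21 to 8.30 with a median of 7.44 at 15C and from 5.41 to 7.39 with a median of 6.67 under N0, against 3.69 to 5.81 with a median of 5.04 at 20C. The 15C arrays stood above all 20C arrays of any line, and the N0 arrays above the 20C arrays of their own line. In NIL DOG6 *BGLU28* spread widely within a group, with 5.81, 5.27 and 3.69 at 20C. Under LL it ranged from 3.14 to 4.23 with a median of 3.68, against 3.79 to 5.52 with a median of 4.42 under SL. The arrays of LL and SL stood apart in NIL DOG3 only, and narrowly. The highest LL value there was 4.16 and the lowest SL value 4.17. The N0 difference was 1.87 ± 0.21 and the LL difference -0.76 ± 0.21, and all LL values lay below the array median of 4.28.

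Only *BGLU30* had mean differences without the opposite signs by which the genes were chosen. It ranged from 9.37 to 9.70 with a median of 9.54 at 15C, against 8.14 to 8.74 with a median of 8.39 at 20C, so that no 20C array reached a 15C array. Its 15C difference was 1.14 ± 0.11. Under N0 it differed by only 0.20 ± 0.11, with 9.30 and 8.87 in NIL DOG3, 8.53, 8.75 and 8.44 in NIL DOG6 and 8.14, 8.39 and 7.93 in NIL DOG1. Only the N0 arrays of NIL DOG3 stood above their 20C arrays, which were at 8.74, 8.19 and 8.20. Under LL it was 0.09 ± 0.11 above SL, where the mean differences of the other 9 genes were below 0. This difference was smaller than its error, as were those of *LSU4* (-0.06 ± 0.13) and *GGCT2;1* (-0.02 ± 0.14). *BGLU30* and *GGCT2;1* were each above 0 in 2 of 3 lines, so the contrast in sign is not a clear one. Within groups *BGLU30* moved with the mean of the pollen markers, with a residual correlation of 0.664 over 44 arrays, while the other 9 genes had values of -0.05 to 0.34. The part of pollen in its level was not tested.

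*SDI1* ranged from 6.47 to 7.11 with a median of 6.80 at 15C and from 5.89 to 7.09 with a median of 6.65 under N0, against 5.11 to 6.14 with a median of 6.00 at 20C. Within each line the 15C and the N0 arrays all lay above the 20C arrays. Under LL it ranged from 4.81 to 5.83 with a median of 5.26, against 4.87 to 6.29 with a median of 5.81 under SL. The differences were 1.05 ± 0.10 for 15C, 0.90 ± 0.11 for N0 and -0.42 ± 0.10 for LL. *SDI2*, its relative, differed less, by 0.37 ± 0.08, 0.41 ± 0.08 and -0.11 ± 0.08. In NIL DOG6 the N0 arrays of *SDI2* stood above the 20C arrays, while in NIL DOG3 they overlapped. In NIL DOG1 they stood narrowly above, with a lowest N0 value of 7.6499 against a highest 20C value of 7.6455.

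*SHM7* varied least among replicates, with a residual SD of 0.126, against 0.469 for *LSU1*. It ranged from 10.01 to 10.44 with a median of 10.36 at 15C and from 9.65 to 10.30 with a median of 10.06 under N0, against 9.28 to 9.91 with a median of 9.60 at 20C. Its differences were 0.72 ± 0.06 for 15C, 0.47 ± 0.07 for N0 and -0.12 ± 0.06 for LL. *GGCT2;1* was dim, from 4.09 to 5.56 at 15C and from 3.90 to 4.93 under N0, against 3.29 to 4.21 at 20C. It differed by 0.86 ± 0.14 at 15C and 0.52 ± 0.15 under N0, or by 0.36 under N0 without the array of NIL DOG3 numbered 2. Its LL and SL arrays overlapped in each line (-0.02 ± 0.14).

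**Figure D2:**
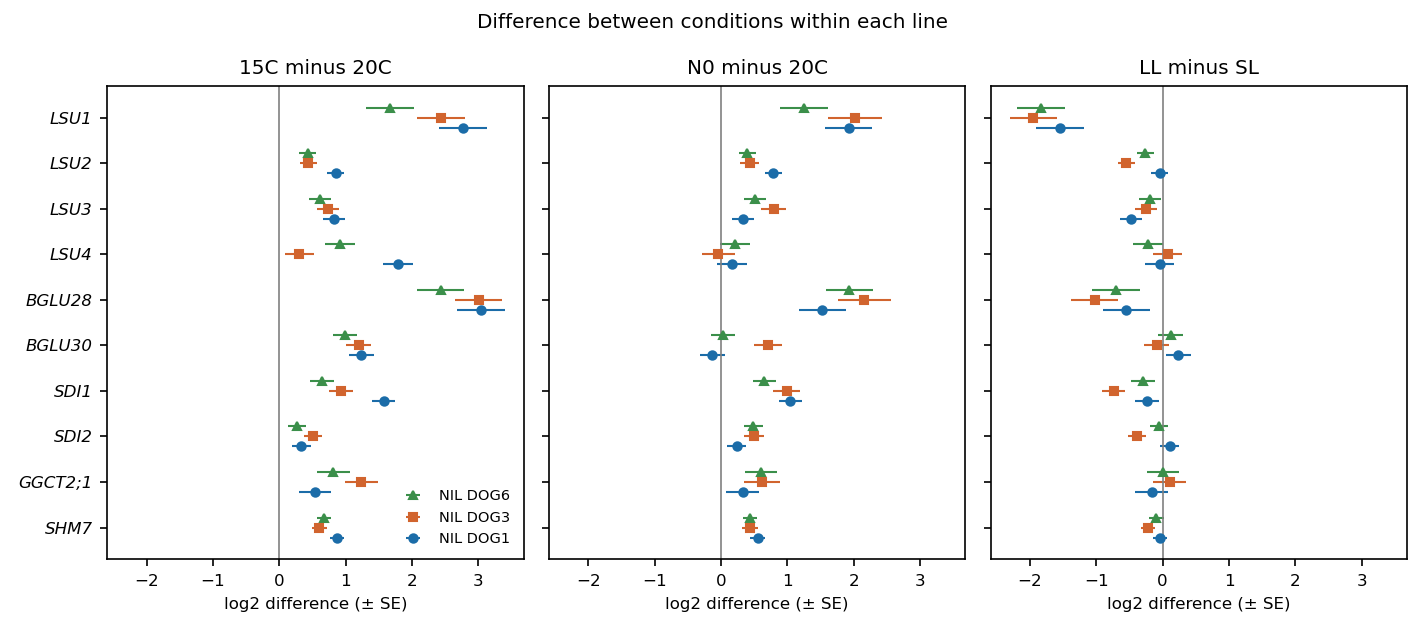
Log2 differences (x axis, ± SE) of the 10 genes (y axis) within each line, for 15C minus 20C, N0 minus 20C and LL minus SL, with 1 symbol per line. At 15C all points lie above 0, while under LL *LSU1* stands furthest below 0, at -1.84 in NIL DOG6, -1.95 in NIL DOG3 and -1.55 in NIL DOG1.

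Calls were made with limma's two-sided moderated test, at an adjusted p under 0.05 after Benjamini-Hochberg correction across all 27827 probe sets. For the conditions the calls of the 10 genes only describe how far the values that chose them stood from the spread between arrays. At 15C 10 of the 10 genes were called higher, with a median log2 difference of 0.93, where 12.5% of all probe sets were called higher and the median of all was 0.0048. Under N0 8 were called higher, all but *LSU4* and *BGLU30*, with a median of 0.53, where 5.86% of all probe sets were called higher. Under LL 4 were called lower, *LSU1*, *LSU2*, *BGLU28* and *SDI1*, with a median of -0.20, where 3.63% of all probe sets were called lower. The call of *BGLU28* was lost in 5 of 18 fits that left out 1 array and with only the LL and SL arrays in the fit, and *LSU3* was called as well with a filter on dim probe sets, with the replicate number as a block or with a trended robust spread. The 4 genes were each also called higher at 15C and under N0, a combination met by 0.744% of all probe sets. A mean above 0 for N0 and below 0 for LL was met by 9 of the 10, all but *BGLU30*, and by 26.4% of all probe sets. These counts describe the choice of the genes, and nothing is read from the shares. Beside them, 3 of the 8 storage and oil body markers were called lower both at 15C and under N0. Of all probe sets 12.8% and 6.07% were called lower. The log2 differences of these markers were -0.39 and -0.58 for *SESA1*, -0.38 and -0.69 for *SESA2* and -0.27 and -0.66 for *SESA4*. Of 5 leaf markers *LHCB1.3* was higher at 15C (0.51) and *RBCS1A* lower under N0 (-0.62), and of 5 seed coat markers *TT10* (0.84) and *PER36* (0.47) were higher at 15C and *TT10* (0.34) under LL. The part of these markers in the results was not tested. Without the 3 SL arrays numbered 2, on which pollen markers were high, the LL differences of these 4 genes were -1.68 for *LSU1*, -0.32 for *LSU2*, -0.80 for *BGLU28* and -0.46 for *SDI1*, and the part of pollen in them was not tested.

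Counted by array, 8 genes had all 15C arrays above all 20C arrays in each of the 3 lines, the exceptions being *LSU4* and *GGCT2;1*, against 5.13% of all probe sets. For N0 this held for 5 genes, *LSU1*, *LSU2*, *BGLU28*, *SDI1* and *SHM7*, against 2.3% of all probe sets. For LL below SL it held for *LSU1* alone of the 10, against 0.615% of all probe sets. Within single lines, 9 of the 10 genes were called higher at 15C in NIL DOG6, 9 in NIL DOG3 and 8 in NIL DOG1, where 5.72%, 4.95% and 5.33% of all probe sets were. Under N0 5 were called higher in each line, where 2.12%, 1.39% and 1.56% of all probe sets were. Under LL *LSU1* was the only one of the 10 called lower in each line, where 1.3%, 0.0108% and 0.226% of all probe sets were. In NIL DOG3 few probe sets were called at all under LL, 3 lower and 1 higher, and *LSU1* was among the 3. Since the LL response was known when the genes were chosen, this only describes *LSU1*.

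Differences between the lines had no part in the choice of the genes and were tested on the average of the differences found in each of the 5 conditions. Most of the 10 genes were higher in NIL DOG6 and in NIL DOG3 than in NIL DOG1. In NIL DOG6 minus NIL DOG1, 7 genes were called higher, where 4.02% of all probe sets were called higher and 8.25% in either direction. *LSU2* was 0.53 ± 0.06 higher (adjusted p = 1.13e-08) and *SDI2* 0.47 ± 0.06 higher (adjusted p = 5.41e-07), each in 5 of 5 conditions. *SHM7* was 0.39 ± 0.05 higher (adjusted p = 2.31e-07) and *LSU3* 0.38 ± 0.07 higher (adjusted p = 0.000486), also in 5 of 5 conditions. *SDI1* was 0.50 ± 0.08 higher (adjusted p = 1.86e-05) and *LSU1* 0.57 ± 0.16 higher (adjusted p = 0.0198), each in 4 of 5 conditions, the exception being 15C. *BGLU30* was 0.38 ± 0.08 higher in 5 of 5 conditions (adjusted p = 0.00171). The other 3 genes did not pass, with *BGLU28* at 0.45 ± 0.16 (adjusted p = 0.0791), *LSU4* at -0.18 ± 0.10 and *GGCT2;1* at 0.16 ± 0.11. Without the 20C array of NIL DOG6 at which *BGLU28* was 3.69, its difference was 0.58 and was called (adjusted p = 0.00317).

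In NIL DOG3 minus NIL DOG1, 6 genes were called higher, where 6.07% of all probe sets were called higher and 11.1% in either direction. *BGLU28* showed the largest difference, 0.88 ± 0.16 (adjusted p = 0.000171), and was higher in 5 of 5 conditions. *SDI1* was 0.50 ± 0.08 higher (adjusted p = 2.52e-05) and *SHM7* 0.33 ± 0.05 higher (adjusted p = 5.39e-06), each in 5 of 5 conditions. *LSU2* was 0.36 ± 0.06 higher (adjusted p = 2.44e-05) and *SDI2* 0.26 ± 0.06 higher (adjusted p = 0.0039), each in 4 of 5 conditions. *LSU3* was 0.27 ± 0.08 higher in 5 of 5 conditions (adjusted p = 0.015), but this call was lost without the N0 array of NIL DOG3 numbered 3 (adjusted p = 0.0672). The other 4 genes did not pass, with *LSU1* at 0.18 ± 0.17, *BGLU30* at 0.17 ± 0.09, *GGCT2;1* at 0.26 ± 0.11 and *LSU4* at -0.25 ± 0.10. Without the N0 array of NIL DOG3 numbered 3 *GGCT2;1* was called (0.35, adjusted p = 0.0397), and without the 20C array of NIL DOG3 numbered 1 so was *LSU4* (-0.31, adjusted p = 0.031). With 1 array left out, *LSU1* ranged from 0.12 to 0.29 and *GGCT2;1* from 0.16 to 0.35. Both comparisons share the NIL DOG1 arrays, so their likeness is no separate evidence. In each of them 3 of the 8 storage and oil body markers were called lower than in NIL DOG1. Of all probe sets 4.23% were called lower in NIL DOG6 and 5.01% in NIL DOG3. The part of these markers in the result was not tested.

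The direct comparison of NIL DOG6 with NIL DOG3 gave few differences. *SDI2* alone of the 10 was called, 0.21 ± 0.06 higher in NIL DOG6 in 5 of 5 conditions (adjusted p = 0.029), where 4.28% of all probe sets were called higher and 9.61% in either direction. That call was lost in 8 of 29 fits that each left out 1 array, and with only the arrays of both lines in the fit (adjusted p = 0.0687). For *SDI1* the lines differed by 0.0022 ± 0.08. For *BGLU28* the difference was -0.43 ± 0.16 (adjusted p = 0.105).

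**Figure D3:**
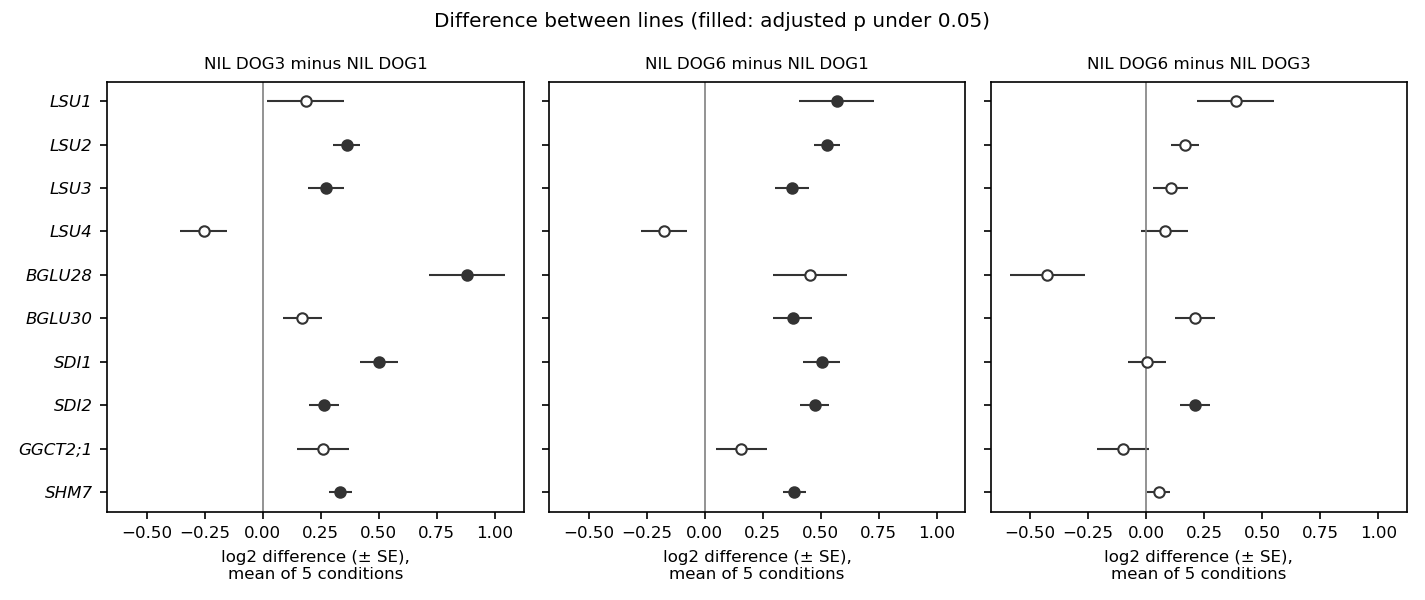
Log2 differences (x axis, ± SE) between the lines for the 10 genes (y axis), each the mean of 5 within-condition differences, with filled circles for an adjusted p under 0.05. There are 6 filled circles for NIL DOG3 minus NIL DOG1, 7 for NIL DOG6 minus NIL DOG1 and 1, *SDI2*, for NIL DOG6 minus NIL DOG3.

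Within single conditions, *LSU2*, *SDI1* and *SHM7* showed the line difference most often. At 20C *LSU2* was at 6.10, 6.07 and 5.85 in NIL DOG6 and 5.81, 6.09 and 5.95 in NIL DOG3, against 5.21, 5.29 and 5.23 in NIL DOG1. *SDI1* was at 6.03, 6.00 and 6.13 in NIL DOG6 and 6.05, 6.14 and 5.80 in NIL DOG3, against 5.11, 5.45 and 5.21 in NIL DOG1. *SHM7* was at 9.81, 9.73 and 9.60 in NIL DOG6 and 9.78, 9.91 and 9.55 in NIL DOG3, against 9.34, 9.28 and 9.28 in NIL DOG1. How many of all probe sets stood apart by array between lines was not counted. For *LSU2*, *SDI1* and *SHM7* no NIL DOG1 array at 20C reached an array of another line. All 3 were called higher than in NIL DOG1 at 20C and under SL, in NIL DOG6 (0.945% and 1.07% of all probe sets called higher) and in NIL DOG3 (1.45% and 1.4%). Under LL they were called higher in NIL DOG6 (1.02%). In NIL DOG3 limma called 0 of the 10 genes under LL (1.32% of all higher), and *SHM7* alone had an unadjusted p under 0.05. At 15C limma called 0 of the 10 higher than in NIL DOG1 in NIL DOG6 and in NIL DOG3, where 0.898% and 1.51% of all probe sets were, and 2 and 4 of the 10 were higher at an unadjusted p under 0.05.

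At 15C *LSU4* was the only called gene of the 10, and it went the other way. It was lower than in NIL DOG1, with a difference of -0.94 ± 0.22 for NIL DOG6 (adjusted p = 0.0121) and -1.28 ± 0.22 for NIL DOG3 (adjusted p = 0.000242), with no overlap of the arrays given above, where 0.949% and 1.43% of all probe sets were called lower. Under N0 *SDI2* was 0.70 ± 0.14 higher in NIL DOG6 than in NIL DOG1 (adjusted p = 0.00168), at 8.39, 8.97 and 8.32 against 7.97, 7.96 and 7.65. *BGLU30* was 0.94 ± 0.21 higher in NIL DOG3 than in NIL DOG1 under N0 (adjusted p = 0.0083). NIL DOG3 had only 2 arrays there, at 9.30 and 8.87. The array at 9.30 also had the highest mean of pollen markers under N0, 6.25, and the part of pollen was not tested. Under LL *BGLU30* was at 9.30, 9.34 and 9.18 in NIL DOG6, against 8.18, 8.31 and 8.87 in NIL DOG3, a difference of 0.82 ± 0.19 (adjusted p = 0.00884). *LSU2* was 0.50 ± 0.13 higher in NIL DOG6 than in NIL DOG3 under LL (adjusted p = 0.0251). The corresponding shares of all probe sets called higher were 1.03%, 0.676% and 1.15%.

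Whether a response differed between lines was tested with limma's moderated F test. None of the 10 genes passed for 15C, N0 or LL, where 11, 0 and 1 of all probe sets did (0.0395%, 0% and 0.00359%). At an unadjusted p under 0.05 the counts were 3, 1 and 2 of the 10, where 5.01%, 5.66% and 6.67% of all probe sets fell under it. The smallest p belonged to *LSU4* at 15C, unadjusted 0.000161 and adjusted 0.148, with responses of 0.91 ± 0.22 in NIL DOG6, 0.30 ± 0.22 in NIL DOG3 and 1.79 ± 0.22 in NIL DOG1. *SDI1* at 15C followed with an unadjusted p of 0.00277 and an adjusted p of 0.489, and with responses of 0.64, 0.94 and 1.57 in the same order of lines. An equal response of the lines is not shown by these tests.

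The genes lie on chromosomes 1, 2, 3 and 5. The 20 measured genes on each side of a member could include another member. Between 0 and 6 of these 40 were called in either direction in a comparison of lines. In either direction 8.25% of all probe sets were called in NIL DOG6 minus NIL DOG1. The shares were 11.1% in NIL DOG3 minus NIL DOG1 and 9.61% in NIL DOG6 minus NIL DOG3. The highest count, 6, stood beside *SDI1* in NIL DOG6 minus NIL DOG1 and beside *SDI2* in NIL DOG6 minus NIL DOG3. Beside *LSU2* it was 2 of 40 in NIL DOG6 minus NIL DOG1 and 4 of 40 in NIL DOG3 minus NIL DOG1.

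The deviations of single arrays from their group means hold none of the condition differences. Over these deviations the 10 genes moved partly together. Of the 45 pairs of genes 36 had a correlation above 0, with a median of 0.258, while the median between the 10 genes and all other probe sets was -0.0049 and 49.1% were above 0. *SHM7* stood at the centre, with 0.56 to *LSU2*, 0.55 to *SDI2*, 0.53 to *BGLU30*, 0.52 to *SDI1* and 0.46 to *BGLU28*. For *LSU2*, *SHM7* ranked 30 of 27826 probe sets by this correlation. *LSU1* correlated with *BGLU28* at 0.51 but with its neighbour *LSU3* at -0.22 and with *LSU4* at -0.39. *GGCT2;1* ran against *SHM7* at -0.42 and against *SDI2* at -0.36. Residual correlations with the mean of the pollen markers were highest for *BGLU30* (0.664) and *SHM7* (0.344), and -0.05 to 0.31 for the others. The part of pollen in the correlations between the 10 genes was not tested. All points share 44 arrays with 29 residual degrees of freedom, and no p is given. The median depended on the condition, with -0.0052 in the 15C arrays alone and -0.017 in the LL arrays alone, against 0.421 for N0, 0.357 for 20C and 0.301 for SL.

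**Figure D4:**
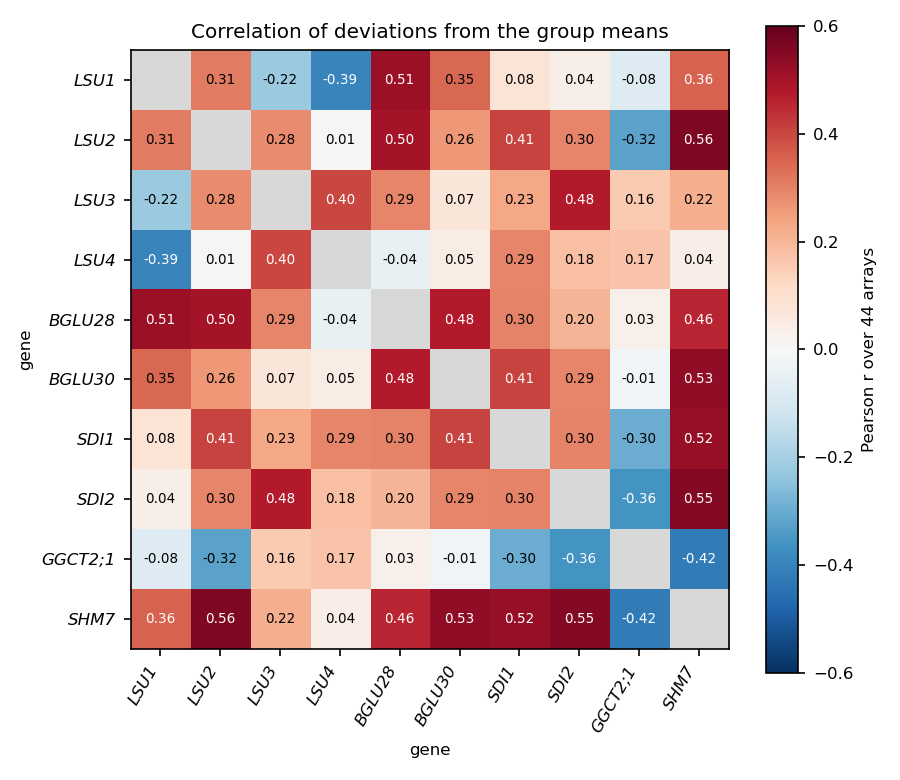
Pearson correlations (colour and printed value) over 44 arrays between the deviations of each pair of the 10 genes from their group means, with genes on both axes. *SHM7* has values of 0.46 to 0.56 with *LSU2*, *BGLU28*, *BGLU30*, *SDI1* and *SDI2*, while *GGCT2;1* has negative values with *LSU2*, *SDI1*, *SDI2* and *SHM7*.

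Across the 15 group means, *SHM7* (r = 0.978), *LSU3* (0.968), *SDI1* (0.967) and *BGLU28* (0.959) were most like the mean profile of the 10 genes, each first centred and scaled. *BGLU30* (0.693) and *LSU4* (0.622) were least like it. Among all other probe sets the most alike was *SULTR1;2* (r = 0.975), which encodes a main sulphate uptake transporter of the root. Next came AT5G64850 (0.964), the malonyltransferase gene *PMAT2* (0.961), AT3G17160 (0.960), AT1G63820 (0.953), *PRA1.B3* (0.949), *FKBP13* (0.948), AT1G63840 (0.947), *LSH6* (0.946) and AT5G44260 (0.946). Profiles most opposite were those of AT1G64140 and AT1G64142, whose values were identical on the array (-0.973), *MDAR4* (-0.972), AT5G16880 (-0.955) and *PERK13* (-0.954). *MDAR4* encodes a monodehydroascorbate reductase, and it differed by -0.60 ± 0.06 at 15C, -0.39 ± 0.06 under N0 and 0.18 ± 0.06 under LL. The points are the same 15 groups that formed the mean profile, so these values describe likeness only.

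Other sulphur genes were counted in 7 lists of 80 genes that are no members. At 15C 21 of the 80 were called higher and 8 lower, where 12.5% and 12.8% of all probe sets were. Under N0 11 were called higher and 6 lower (5.86% and 6.07% of all), and under LL 5 higher and 5 lower (2.73% and 3.63% of all). The medians of the 80 were 0.04, 0.03 and 0.04, beside 0.0048, 0.0082 and 0.014 for all probe sets. The storage, leaf and seed coat markers that moved with 15C, N0 and LL are given above, and their part in these counts was not tested.

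Among 12 sulphate transporters, 5 rose at 15C, 2 under N0, and 2 fell under LL. Several of the 12 were dim in every condition, which limits these counts. *SULTR2;2*, among the 5 that rose, had a mean of 3.33 at 15C against 2.98 at 20C, below the median of 4.28. Of all probe sets 12.5% were called higher at 15C, 5.86% higher under N0 and 3.63% lower under LL. *SULTR1;2* rose by 1.33 ± 0.16 at 15C (adjusted p = 3.36e-08) and by 1.00 ± 0.16 under N0 (adjusted p = 3.12e-05), and it changed by -0.53 ± 0.16 under LL (adjusted p = 0.0348). *SULTR3;1*, a chloroplast transporter, rose by 0.97 ± 0.10 and 0.57 ± 0.10 and changed by -0.53 ± 0.10 under LL (adjusted p = 9.31e-10, 8.8e-05 and 0.000577). *SULTR3;3* rose by 0.61 ± 0.10 and the vacuolar *SULTR4;2* by 0.46 ± 0.11 at 15C. *SULTR1;1*, the other root uptake transporter, was not called in any of the 3, with -0.03 ± 0.11, -0.15 ± 0.12 and 0.23 ± 0.11. It was dim, with condition means from 2.99 under N0 to 3.42 under LL, below the median of 4.28. The missing calls therefore say little about its response.

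Among 20 genes of sulphate assimilation and cysteine synthesis, 11 rose and 1 fell at 15C, and 7 rose and 2 fell under N0. All 3 APS reductase genes rose both at 15C and under N0. *APR1* rose by 0.76 ± 0.11 at 15C and 0.55 ± 0.11 under N0, *APR2* by 0.52 ± 0.05 and 0.41 ± 0.06, and *APR3* by 0.42 ± 0.09 and 0.45 ± 0.10 (largest adjusted p = 0.00092). The serine acetyltransferase gene *SERAT2;1*, of the enzyme that makes O-acetylserine, rose by 0.56 ± 0.09 and 0.51 ± 0.09, and the ATP sulphurylase gene *ATPS4* by 0.39 ± 0.09 and 0.71 ± 0.10. Under LL 2 of the 20 rose, 3 fell and 15 were not called. *APR1* rose under LL by 0.36 ± 0.11 (adjusted p = 0.0388). *APR2* changed by -0.33 ± 0.05 (adjusted p = 0.000238), and *APR3* was at 0.01 ± 0.09 and did not pass. The APS kinase gene *APK2* rose by 0.52 ± 0.15 (adjusted p = 0.0357) and *APK3* changed by -0.35 ± 0.08 (adjusted p = 0.00746). *APK2* was dim and spread widely, from 3.40 to 5.66 under LL and from 3.38 to 5.03 under SL.

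**Figure D5:**
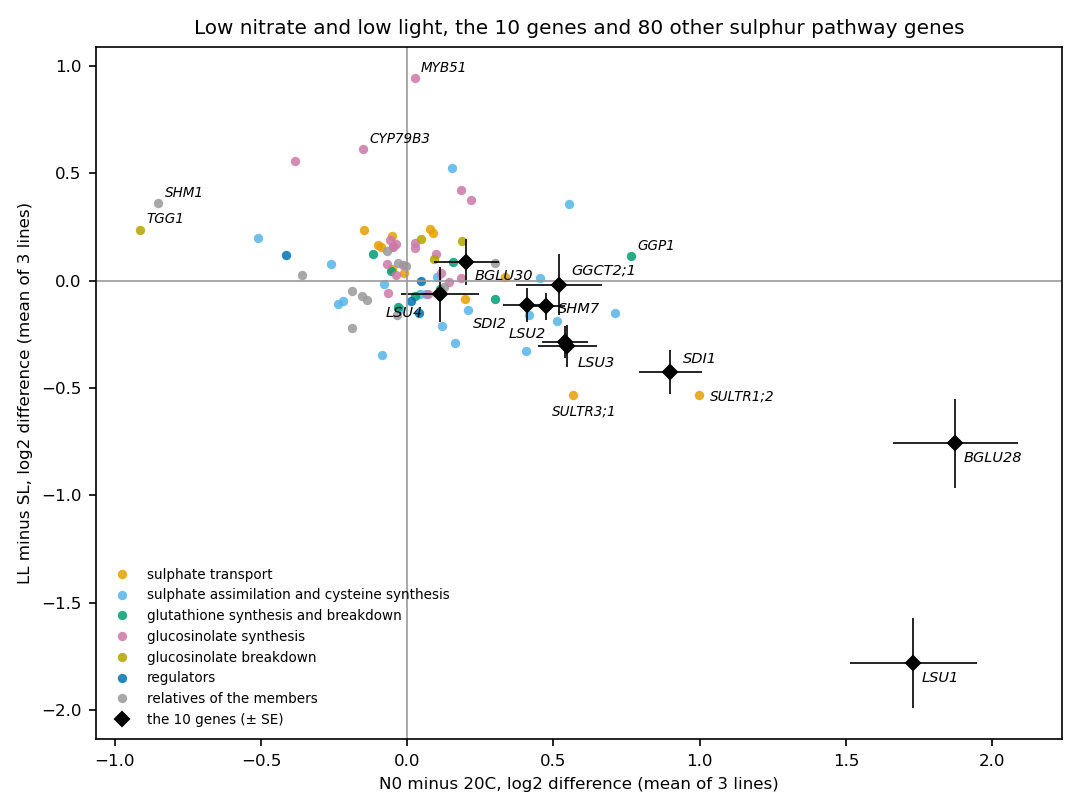
Log2 differences for N0 minus 20C (x axis) and LL minus SL (y axis), each the mean of 3 lines, for the 10 genes (black diamonds, ± SE) and 80 other sulphur pathway genes (circles, coloured by list). *LSU1*, *BGLU28*, *SDI1* and the transporter genes *SULTR1;2* and *SULTR3;1* lie to the lower right, while *TGG1* and *SHM1* lie to the upper left.

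Of 8 glutathione genes, *GGP1*, whose enzyme takes part in glucosinolate synthesis and glutathione breakdown, rose by 1.31 ± 0.11 at 15C (adjusted p = 5.21e-11) and 0.76 ± 0.12 under N0 (adjusted p = 1.19e-05). *OXP1*, which encodes 5-oxoprolinase of the same breakdown route as GGCT2;1, changed by -0.33 ± 0.09 at 15C (adjusted p = 0.00663). The 20 genes of glucosinolate synthesis held no call at 15C or under N0 in limma, and 1 and 0 of them had an unadjusted p under 0.05. Of all probe sets 25.3% were called in either direction at 15C and 11.9% under N0, and 2.73% were called higher under LL. Under LL 3 rose, *MYB51* by 0.94 ± 0.20, *CYP79B3* by 0.61 ± 0.13 and *SOT16* by 0.38 ± 0.12. *MYB51* and *CYP79B3* act in the synthesis of indole glucosinolates. Without the SL arrays numbered 2, only 1 gene of all 80 was called higher and 3 lower under LL. *TGG1*, a myrosinase that breaks down glucosinolates, changed by -0.89 ± 0.11 at 15C (adjusted p = 8.61e-08) and -0.91 ± 0.11 under N0 (adjusted p = 3.18e-07).

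Of 12 relatives of the 10 genes, 8 were not called at 15C, 10 under N0 and 12 under LL. *BGLU29*, *BGLU31* and *BGLU32* were not called at 15C, under N0 or under LL, with *BGLU29* at 0.40 ± 0.15, 0.30 ± 0.16 and 0.08 ± 0.15. In the family of *SHM7*, 4 genes fell at 15C and 2 under N0, where 12.8% and 6.07% of all probe sets were called lower. *SHM1*, the photorespiratory enzyme of mitochondria, changed by -0.64 ± 0.12 at 15C (adjusted p = 0.000114) and -0.85 ± 0.13 under N0 (adjusted p = 8.12e-06). *SHM4* changed by -0.52 ± 0.09 and -0.36 ± 0.09. Of the regulators, *SLIM1* rose by 0.23 ± 0.05 at 15C (adjusted p = 0.00155) and stood at 0.04 ± 0.06 under N0 and -0.15 ± 0.05 under LL, without a call. *HY5*, a light signalling factor that acts on APS reductase genes, changed by -0.38 ± 0.06 at 15C and -0.42 ± 0.07 under N0 (largest adjusted p = 2.83e-05).

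Between the lines, 10 of the 80 were called higher and 11 lower in NIL DOG6 minus NIL DOG1, and 11 higher and 9 lower in NIL DOG3 minus NIL DOG1 (4.02% and 4.23%, then 6.07% and 5.01%, of all probe sets). In NIL DOG6 minus NIL DOG3 3 were called higher and 8 lower (4.28% and 5.34%). *APR3* was 0.42 ± 0.07 higher in NIL DOG6 (adjusted p = 4.24e-05) and 0.41 ± 0.07 higher in NIL DOG3 (adjusted p = 0.000102) than in NIL DOG1. *ATPS4* was 0.48 ± 0.07 and 0.52 ± 0.08 higher, and *SERAT3;2* 0.57 ± 0.11 and 0.54 ± 0.12 higher. *SULTR1;2* was 0.44 ± 0.12 higher in NIL DOG6 (adjusted p = 0.016) and did not pass in NIL DOG3 (0.34 ± 0.12). Of the 20 genes of glucosinolate synthesis, 5 were lower than in NIL DOG1 in NIL DOG6 and 5 in NIL DOG3, and the other 15 were not called in either. *CYP79B2*, which starts the indole branch, differed by -0.94 ± 0.15 in NIL DOG6 and -1.40 ± 0.16 in NIL DOG3, *CYP83B1* by -0.74 ± 0.12 and -0.48 ± 0.12, and *MYB51* by -0.71 ± 0.15 and -0.70 ± 0.16. *APK2* differed by -0.77 ± 0.12 and -0.90 ± 0.12, and *OXP1* by -0.63 ± 0.07 and -0.54 ± 0.07. *TGG1* was lower in NIL DOG6, by a difference of -0.76 ± 0.08 from NIL DOG1 (adjusted p = 1.66e-08) and of -0.96 ± 0.09 from NIL DOG3 (adjusted p = 1.54e-10).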

How the data were processed

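RNA of dry seed was measured on 44 arrays in 15 groups. The authors deposited log2 values. The submitters' processing notes name RMA, with no version. Annotation and genome build were not given in the sources used here, and neither coordinates nor sequences are printed. Gene names came from a RefSeq table of TAIR10.1, except that of *SDI2*, which the table does not name.

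Group means of all arrays were fitted with limma 3.58.1 (lmFit, eBayes) in R 4.3.3, with no filter or block. This left 29 residual degrees of freedom and a median residual SD of 0.199. Tests were two-sided with Benjamini-Hochberg adjustment over all 27827 probe sets. Replicates are biological per the labels, and their number limits the precision. The fit was tested on simulated data with known changes.

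The 10 genes, the lists and the tests were chosen with earlier results of these data known. Pathway genes were named as the called genes with the largest difference, up to 3 per list and comparison, with *APR3*, *SLIM1*, *SULTR1;1*, *SULTR1;2*, *SULTR4;2*, *BGLU29*, *BGLU31* and *BGLU32* always included, and not every gene so chosen is printed. Alternatives were a filter on dim probe sets, replicate blocks, other scalings, another spread model, fewer arrays in the fit and each array left out. The labels do not state whether replicate numbers pair the samples, and the main fit did not pair them. Correlations of same-numbered deviations between conditions were -0.14 to 0.24, with 5 of 26 above 0.1. Those between lines were -0.14 to 0.40, with 12 of 43 above 0.1. The highest were 0.40 for SL number 2 (NIL DOG3 and NIL DOG1) and 0.27 for LL number 3 (NIL DOG6 and NIL DOG1). The cause of these correlations was not tested.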

Additional observations from a re-analysis of the deposited data

How the results depend on the processing

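The counts of genes called higher at 15C (10), under N0 (8) and in NIL DOG3 (6) and NIL DOG6 (7) against NIL DOG1 stayed within 1.5 times under every alternative run. For NIL DOG6 minus NIL DOG3 the count of 1 became 2 with a filter on dim probe sets, with centred array medians or with repeated quantile normalization, became 0 with only the arrays compared, and ranged from 0 to 2 with 1 array left out. Of the 80 pathway genes, 5 lower under LL became 11 with the filter, 10 with a trended robust spread, 3 with only the arrays compared, 3 without the SL arrays numbered 2 (chosen after seeing the data), and 3 to 7 with 1 array left out. The 5 higher under LL became 3 with only the arrays compared, 1 without the SL arrays numbered 2, and 2 to 8 with 1 array left out. The cause was not tested. The filter kept 13913 probe sets and dropped *LSU4*, *GGCT2;1* and 40 pathway genes.

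With 1 array left out, small differences changed sign: *SDI1* in NIL DOG6 minus NIL DOG3 ranged from -0.028 to 0.024, and under LL *LSU4* from -0.13 to 0.0037 and *GGCT2;1* from -0.079 to 0.045. The median residual correlation of 0.258 became -0.0052 in 15C arrays alone, -0.017 in LL arrays alone and 0.421 in N0 arrays alone. With only the arrays compared, calls were lost for *GGCT2;1* under N0 and *BGLU28* under LL. *BGLU28* under LL also lost its call in 5 of 18 fits without 1 array: LL arrays numbered 2 of NIL DOG1 and 1 of NIL DOG6, and SL arrays numbered 3 of NIL DOG1, 2 of NIL DOG3 and 1 of NIL DOG6. *GGCT2;1* under N0 lost its call without the N0 array of NIL DOG3 numbered 2.

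The labels give groups the same replicate numbers and do not state whether these pair the samples. With the number as a replicate block, 5 genes were called lower under LL in place of 4, *LSU3* being added, and the median residual correlation was 0.253. A random replicate block of condition and number changed no count of the 10 genes. Dim genes limit the size of differences: *LSU4*, *GGCT2;1*, and *LSU1* and *BGLU28* under LL lay near or below the array median.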
